A study of Homo sapiens with 9 samples.

Results

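The 705 peaks described here were QKI‐5 HITS‐CLIP peaks that lay in an intron of a protein‐coding gene, in the last 250 nt before an exon. They were chosen by position alone from a list of 24037 peaks. A member lay in an intron of a basic protein‐coding transcript on the peak's own strand (GENCODE release 44 on hg19, GRCh37), overlapped no exon of such transcripts, had the 3′ splice site after it as its nearest exon edge, and had its centre 1 to 250 nt from that site. Members made up 2.94% of the 24019 peaks on nuclear chromosomes and 3.98% of the 17708 intronic peaks that overlapped no exon. They lay before 553 3′ splice sites in 461 genes. That was 0.811% of the 68219 3′ splice sites annotated in the 4540 protein‐coding genes with a peak on their strand. The parts of the list most like them, used for comparison, were the 973 intronic peaks within 250 nt downstream of an exon and the 9917 mid‐intron peaks with a centre more than 250 and at most 5000 nt from the nearest exon edge.

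In HITS‐CLIP, ultraviolet light fixes proteins to bound RNA inside intact cells, an antibody then pulls out the protein of interest, and the attached RNA fragments are sequenced. The libraries came from mesHMLE cells, which are HMLE immortalised human mammary epithelial cells driven into a mesenchymal state with 2.5 ng/ml TGF‐β1 for at least 14 days, and all libraries were crosslinked at 600 mJ/cm2. Once derived, mesHMLE cells were kept in the inducing medium with no further TGF‐β1 added. With an antibody specific for QKI‐5, 3 libraries were made from the band of the QKI monomer and 4 from the band of a presumptive dimer, 1 of these with the SSIV enzyme, and 2 libraries were made from size‐matched input that was not immunoprecipitated. The titles call the libraries technical replicates, and the authors pooled all 7 immunoprecipitation libraries before calling peaks against the input, so each peak has a single height and no value per library.

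QKI is an RNA‐binding protein of the STAR family, and QKI‐5 is its nuclear isoform. It recognises the core ACUAAC, written ACTAAC in DNA letters, best with a second UAAC nearby. An intron ends in a branch point adenosine, a stretch of pyrimidines and the AG of the 3′ splice site, where SF1, another STAR protein, U2AF and then the U2 snRNP assemble. The branch point consensus resembles the QKI core, and QKI is known to act on alternative exons from either side, with binding in the upstream intron generally associated with skipping.

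The first set of sequences shows members with the core hexamer at the distances on which the results turn, each from the 5′ end of the peak to the last intron base before the exon, and a CD47 member whose nearest core hexamer lay outside it. ACTAAC is in capitals. All sequences are from the GRCh37 genome, 5′ to 3′ on the strand of the gene.

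CLASP1, chr2:122202539-122202590, minus strand: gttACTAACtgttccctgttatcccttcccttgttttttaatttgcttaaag
PARD3, chr10:34625172-34625256, minus strand: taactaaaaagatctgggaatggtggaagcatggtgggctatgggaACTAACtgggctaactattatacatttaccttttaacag
HNRNPL, chr19:39329656-39329745, minus strand: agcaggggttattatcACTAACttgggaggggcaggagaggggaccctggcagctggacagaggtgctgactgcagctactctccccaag
BICD1, chr12:32520450-32520603, plus strand: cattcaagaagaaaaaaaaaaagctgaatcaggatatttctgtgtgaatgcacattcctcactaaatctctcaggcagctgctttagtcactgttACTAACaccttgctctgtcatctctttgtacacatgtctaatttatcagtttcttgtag
MYO9B, chr19:17294461-17294637, plus strand: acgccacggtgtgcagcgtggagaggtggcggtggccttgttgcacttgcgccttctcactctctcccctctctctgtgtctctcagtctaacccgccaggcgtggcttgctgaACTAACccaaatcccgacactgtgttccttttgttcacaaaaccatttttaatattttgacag
PHOSPHO2, chr2:170551574-170551724, plus strand: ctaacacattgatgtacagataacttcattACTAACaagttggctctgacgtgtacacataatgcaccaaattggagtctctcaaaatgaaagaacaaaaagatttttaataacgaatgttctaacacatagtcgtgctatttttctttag
CD47, chr3:107768499-107768701, minus strand: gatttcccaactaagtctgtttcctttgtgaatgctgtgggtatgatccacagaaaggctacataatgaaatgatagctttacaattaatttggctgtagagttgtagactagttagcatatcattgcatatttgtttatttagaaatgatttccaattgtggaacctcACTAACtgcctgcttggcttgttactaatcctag

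In CLASP1, which encodes a protein that stabilises microtubule plus ends, the fifth base of ACTAAC lay 45 nt before the exon, and in PARD3, a scaffold of cell polarity, it lay 35 nt before the exon. This base is the adenosine that would serve as a branch point if the hexamer were used as one. In BICD1, an adaptor of dynein, it lay 55 nt away, in MYO9B, an unconventional myosin, 59 nt, in HNRNPL, a splicing regulator, 70 nt, and in PHOSPHO2, a phosphatase gene, 117 nt. In CD47, the cell surface receptor known as a "do not eat me" signal, the hexamer lay 30 nt before a 33‐nt exon, outside the member and inside another peak of the list.

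The second set shows members, from the first to the last base of the peak, with GCATG in capitals. This pentamer is the core bound by the RBFOX splicing factors, and it was the searched motif whose share passed the test against both other parts.

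MYO18A, chr17:27409534-27409610, minus strand: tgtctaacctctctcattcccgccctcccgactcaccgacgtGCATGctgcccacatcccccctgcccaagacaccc
CSNK1G1, chr15:64468532-64468598, minus strand: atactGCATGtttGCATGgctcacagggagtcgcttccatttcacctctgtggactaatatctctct
DNM2, chr19:10907877-10907974, plus strand: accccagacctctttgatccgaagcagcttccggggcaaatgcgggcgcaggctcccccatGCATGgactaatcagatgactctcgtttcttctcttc
DST, chr6:56331122-56331197, minus strand: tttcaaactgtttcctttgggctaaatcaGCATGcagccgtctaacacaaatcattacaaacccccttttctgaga

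MYO18A encodes an unconventional myosin, CSNK1G1 a casein kinase, DNM2 the GTPase dynamin that cuts endocytic vesicles and DST dystonin, a linker of cytoskeletal filaments. The MYO18A and DST members were among the 12 tallest, and the other 2 were among the 2 tallest members of their gene lists.

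The third set shows the tallest member, in ENO1, and the intron end with the most members, in VCL, both again to the last intron base. Neither holds ACTAAC, so no letters are in capitals.

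ENO1, chr1:8930570-8930786, minus strand: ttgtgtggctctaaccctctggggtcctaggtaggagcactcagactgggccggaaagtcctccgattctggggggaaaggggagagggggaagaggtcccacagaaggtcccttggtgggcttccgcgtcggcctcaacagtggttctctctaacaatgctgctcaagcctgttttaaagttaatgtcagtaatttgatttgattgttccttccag
VCL, chr10:75873685-75873941, plus strand: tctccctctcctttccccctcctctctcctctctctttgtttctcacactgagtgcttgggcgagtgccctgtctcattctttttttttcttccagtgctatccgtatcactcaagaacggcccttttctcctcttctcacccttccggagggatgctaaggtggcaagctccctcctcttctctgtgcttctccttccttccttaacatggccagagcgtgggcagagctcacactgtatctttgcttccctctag

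ENO1 encodes the glycolytic enzyme enolase, and VCL encodes vinculin, which links cell adhesions to actin.

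Most members lay well before the splice site. Their centres lay 19 to 250 nt before the exon, with a median of 145 nt and quartiles of 101 and 192 nt. Because a member could not overlap an exon and had a median width of 64 nt, few centres could lie in the last bases of the intron, and the same held for peaks downstream of exons. Only 33 of 705 members (4.68%, 95% interval 3.35 to 6.50) had a centre within 50 nt of the exon, against 88 of 973 downstream peaks (9.04%). Within 100 nt the shares were 24.8% (21.8 to 28.1) and 36.6% (33.6 to 39.7). The median distance was 17 nt greater than the 128 nt of the downstream peaks (permutation test over peaks, 100000 resamples, two‐sided, p = 0.0038, adjusted p = 0.0089 over 7 comparisons). By the same permutation test the difference no longer passed when distances were taken from the summit (7 nt, adjusted p = 0.25) or when peaks below the median height were left out (19 nt, adjusted p = 0.072). Intervals here and below are Wilson intervals that cover counting error only, and p-values are across peaks of 1 pooled list, which are not replicates of the experiment.

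**Figure D1:**
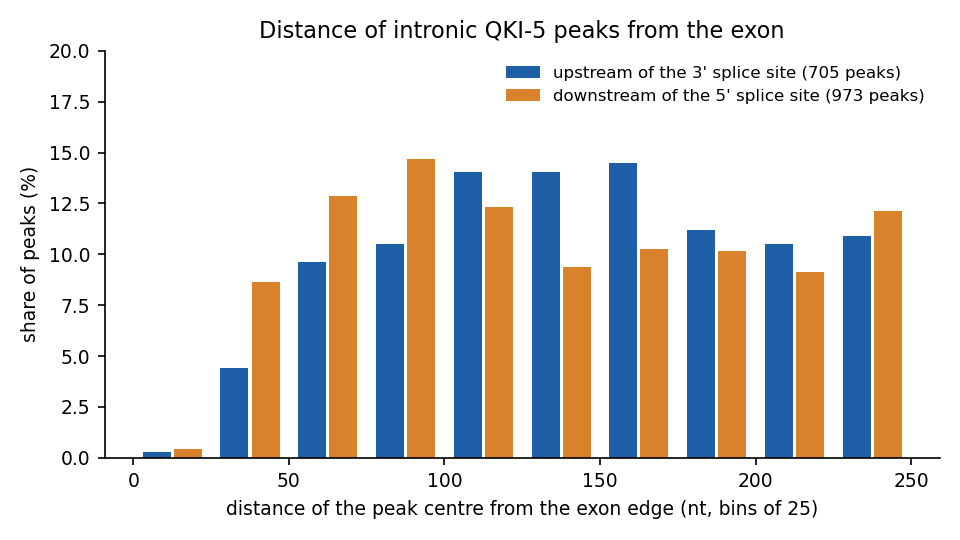
Distance of the peak centre from the exon edge in nt, in bins of 25, against the share of peaks in percent, for the 705 peaks upstream of exons and the 973 downstream. The upstream bars are highest between 101 and 175 nt, and the downstream bars between 51 and 100 nt.

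At the edge of the rule, the members nearest to 250 nt were in DOCK6 (250 nt, height 108), MAP4K4 (250 nt, height 24) and ARIH2 (249 nt, height 17). The peaks just past it were in TCF7L2, MICAL3 and CLEC16A, all at 252 nt, with heights of 45, 40 and 24.

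Members were of ordinary height. The height is a signal that the authors wrote for each peak of the pooled libraries, and it ran from 5 to 215 among members, with a median of 23 and quartiles of 18 and 32. The median was 24 for downstream peaks and 23 for mid‐intron peaks. On the log2 scale the difference of medians was -0.06 against downstream peaks (permutation test, adjusted p = 0.48) and 0.00 against mid‐intron peaks (p = 1.0). Height had almost no relation to distance, with a Spearman correlation of -0.02 over the 705 members, and it rose with width (Spearman correlation 0.45), which is a description because both come from the same coverage.

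The 12 tallest members were in 11 genes. ENO1 led with 215, followed by MYO18A (167), BICD1 (162) and TPM1 (161), a tropomyosin that coats actin filaments. PDE4DIP, which encodes a scaffold of the Golgi and centrosome, had 141, and it is uncertain because near‐identical copies of the gene lie elsewhere on chromosome 1. NUMB, an endocytic adaptor that restrains Notch, had 135, ACTB (cytoplasmic actin) 128, DST 126 and PHOSPHO2 125. A second TPM1 member had 122, MYO9B 119 and HNRNPL 118. Of these 12, the members in BICD1, ACTB, PHOSPHO2, MYO9B and HNRNPL held ACTAAC and the other 7 did not. The exons after them were annotated as skippable in ENO1 (59 nt), NUMB (33 nt), TPM1 (79 and 283 nt) and ACTB (439 nt). An exon was counted as skippable when an intron of another basic protein‐coding transcript of the same gene spanned it.

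Most splice sites had a single member. There were 422 sites with 1 member, 112 with 2, 18 with 3 and 1 with 5. By gene, 320 of 461 had 1 member and 51 had 3 or more, led by MICAL3, an actin‐oxidising enzyme, and SPTAN1, the cortical spectrin, with 9 each. VCL had 8, the axon guidance gene NAV2 had 7, DNM2, the membrane‐bending BIN1 and the G protein gene GNAS had 6 each, and TPM1 had 5. Members of 1 site share an intron end and are not independent of each other.

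The site with 5 members was the 3′ splice site of a 204‐nt VCL exon (chr10:75873942-75874145, plus strand), where low peaks of 15 to 23 covered most of the last 257 nt of the intron. The 3 PFN2 members, before the last exon of this profilin gene, had heights of 64, 43 and 23, and the one of height 43 held ACTAAC. The members in KIF22, a kinesin that moves chromosomes, had heights of 52, 51 and 19. Those in PFKP, a phosphofructokinase, had 43, 28 and 25, and those in DOT1L, a histone H3 methyltransferase, had 56, 20 and 14. None of the members at the VCL, KIF22, PFKP and DOT1L sites held ACTAAC.

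**Figure D2:**
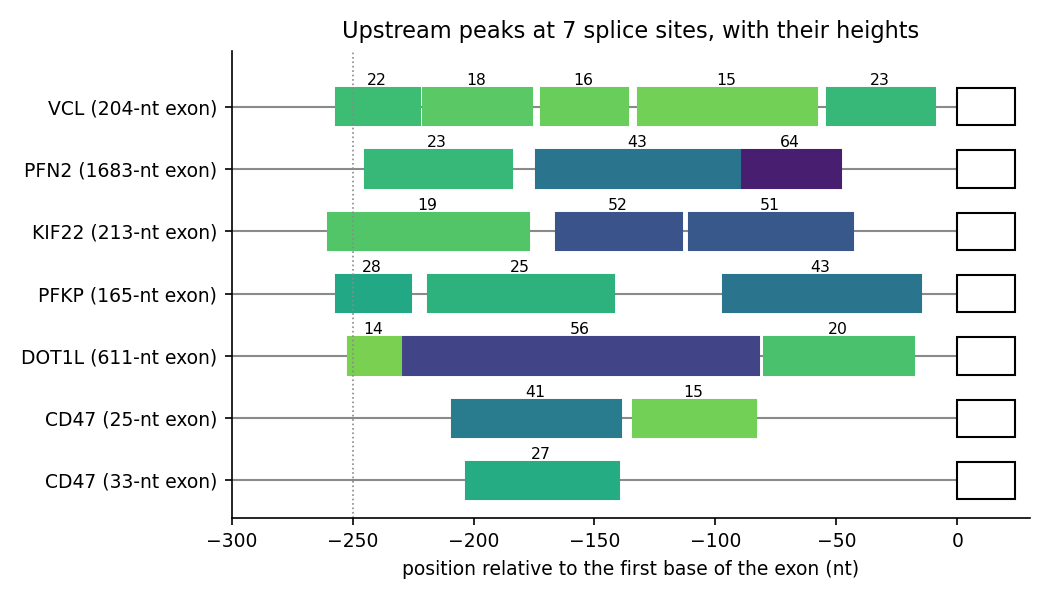
Members at the 5 splice sites with the most members and at the CD47 exons of 25 and 33 nt, by position in nt relative to the first base of the exon (white box, not drawn to length), with the height printed above each peak and darker colours for greater heights. The dotted line marks 250 nt, and the 5 VCL peaks, all between 15 and 23 in height, fill most of the window.

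The QKI core was common in members and as common as on the other side of the exon. ACTAAC on the gene's strand occurred in 88 of 705 members (12.5%, 95% interval 10.2 to 15.1). The share was 12.6% (10.7 to 14.9) in downstream peaks and 10.2% (9.62 to 10.8) in mid‐intron peaks. Neither difference passed Fisher's exact test (two‐sided, Benjamini-Hochberg adjustment over 18 motif comparisons). By the exact test the odds ratio was 0.987 against downstream peaks (adjusted p = 0.94) and 1.26 against mid‐intron peaks (adjusted p = 0.16). The second comparison passed the exact test when only the tallest peak was kept per splice site (odds ratio 1.47, adjusted p = 0.0099). That setting thinned the members but not the mid‐intron peaks, and members with ACTAAC were taller, so it cannot decide the comparison. It also passed in 3 other settings given with the limits. On the opposite strand ACTAAC occurred in 4 members (0.567%). In windows of 64 nt, the members' median width, centred 145 nt before every 3′ splice site of the same genes, it occurred in 435 of 57455 (0.757%).

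The variants of the core gave the same picture. ACTAAT occurred in 36 members (5.11%), against 4.93% of downstream and 4.44% of mid‐intron peaks. TACTAAC, which contains ACTAAC, also occurred in 36 (5.11%), against 5.86% and 4.91%. A core ACTAAC or ACTAAT with a second TAAC or TAAT within 20 nt occurred in 45 (6.38%), against 6.27% of downstream and 4.83% of mid‐intron peaks. None of these passed in either comparison, with adjusted p (Fisher's exact test) from 0.16 to 0.94. The shorter TAAC occurred in 233 members (33.0%), and 7 members held 2 or more copies of ACTAAC.

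Members with the core were taller. The 88 members with ACTAAC had a median height of 29.5, and the 617 without it a median of 22, a difference of 0.42 on the log2 scale (permutation test, 100000 resamples, two‐sided, p = 4.0e-05, adjusted p = 2.8e-04). Of the 202 members in the lowest 25% by height, ties included, 5.94% held ACTAAC, and of the 185 in the highest 25% it was 20.0%. The median width was 73 nt with ACTAAC and 63 nt without it, and the part of width in the difference was not tested. Without the members below the median height the difference was 0.17 (permutation test, adjusted p = 0.20).

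**Figure D3:**
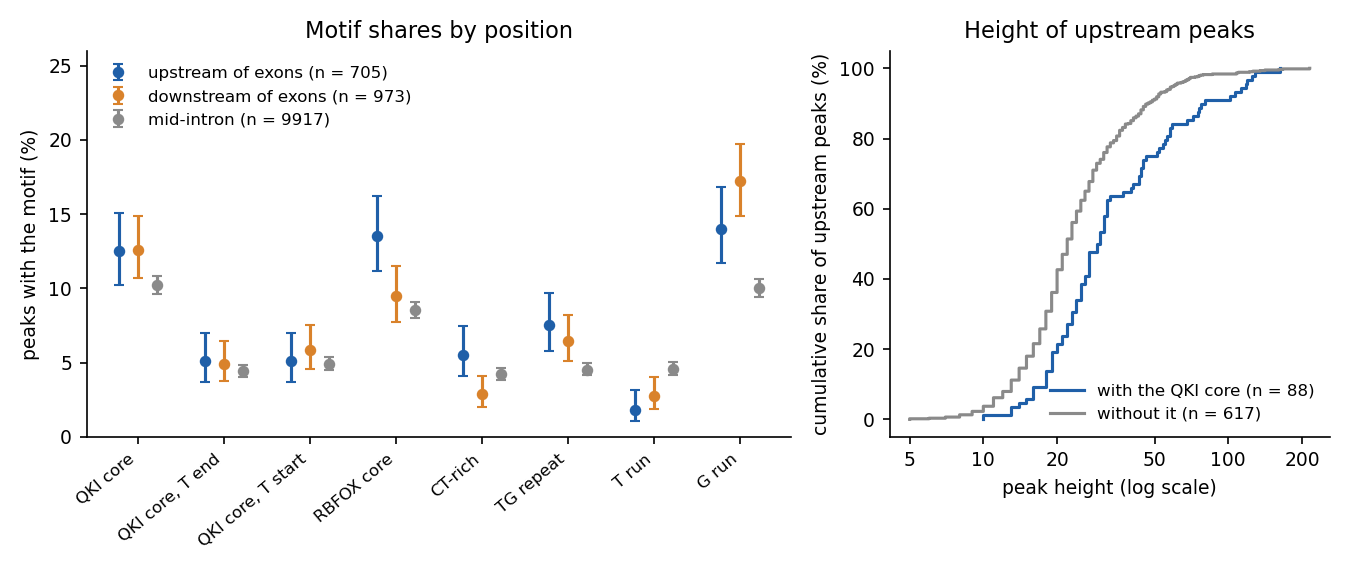
Left, share of peaks with each motif in percent with 95% Wilson intervals, for peaks upstream and downstream of exons and mid‐intron peaks. QKI core is ACTAAC, T end is ACTAAT, T start is TACTAAC, RBFOX core is GCATG, CT‐rich is TTCTCT, TG repeat is TGTGTG, T run is TTTTTT and G run is GGGGG. The upstream point for GCATG, at 13.5%, lies above the other 2 parts. Right, cumulative share of members by height on a log axis, where the curve of the 88 members with ACTAAC runs to the right of the 617 without it.

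The core hexamers in members lay upstream of the usual branch point region. The 88 members held 96 copies of ACTAAC, with the fifth base 35 to 270 nt before the exon, with a median of 134 nt. Only 2 of the 96 (2.08%, 95% interval 0.573 to 7.28) had it 18 to 45 nt before the exon, the window used here for branch points. These were the PARD3 member, of height 32 before a 45‐nt exon, and the CLASP1 member, of height 13 before a 24‐nt exon, both exons skippable and both with no AG between the hexamer and the splice site. Before all 64829 3′ splice sites of these genes with at least 50 nt of intron, ACTAAC was densest in that same window, at 3.33 copies per 10000 bases, against 1.19 at 46 to 100 nt and 1.22 at 151 to 200 nt. That window held 605 of 2095 copies (28.9%).

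A member cannot reach over the splice site, so the same copies were also counted inside any peak of the list, exonic and straddling peaks included. Of the 605 copies at 18 to 45 nt, 14 lay inside a peak (2.31%, 95% interval 1.38 to 3.85). The share was 33 of 420 (7.86%, 5.65 to 10.8) at 46 to 100 nt and 35 of 369 (9.49%, 6.90 to 12.9) at 101 to 150 nt. It was 7.14% at 151 to 200 nt and 4.91% at 201 to 250 nt. Right next to the exon, at 1 to 17 nt, it was 5 of 52 (9.62%, 4.18 to 20.6), the highest share, from few copies. The interval of the 18 to 45 nt window overlapped neither that of the 1 to 17 nt window nor those of the 3 windows from 46 to 200 nt. These shares are a description, with no test, and copies were not filtered for whether their genes' introns were covered by reads.

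**Figure D4:**
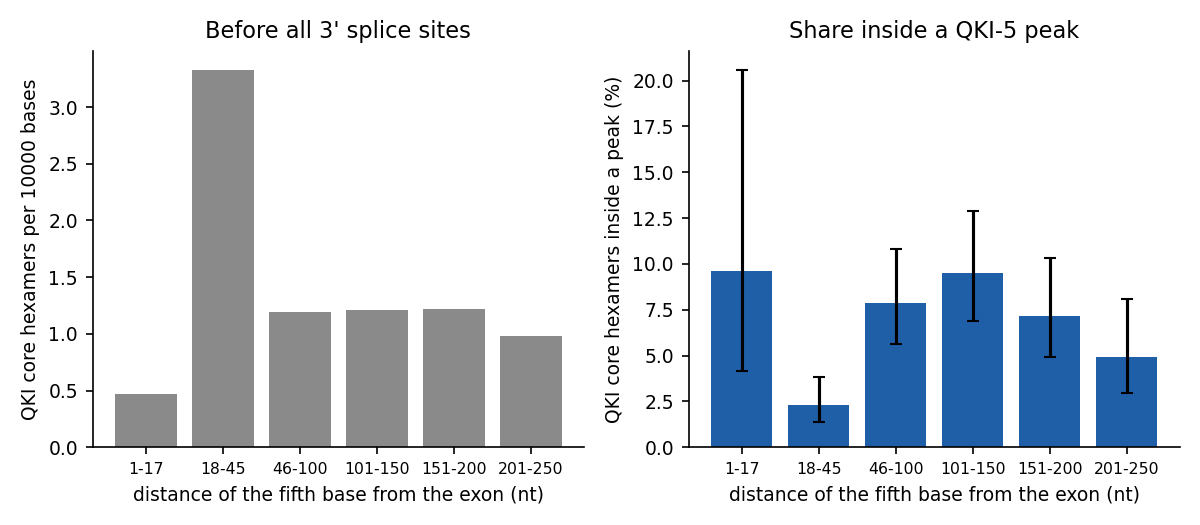
Left, copies of the QKI core ACTAAC per 10000 bases before all 3′ splice sites of genes with a peak, by the distance of the fifth base from the exon in nt. Right, the percent of those copies inside any QKI‐5 peak, with 95% Wilson intervals. The window of 18 to 45 nt has the highest density (3.33) and the lowest share inside a peak (2.31%), and the window of 1 to 17 nt has the highest share (9.62%) and the widest interval.

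Before the 553 splice sites with a member there were 142 copies of ACTAAC in 250 nt, and 14 of them, at 12 sites, had the fifth base at 18 to 45 nt. Of these 14, 2 lay in members, 7 in other peaks and 5 in no peak. The 7 were in VCL (40 nt), ARHGEF7 (23 nt), BIN1 (36 nt), CD47 (30 nt), AFAP1 (24 nt) and RAI14 (36 and 45 nt), genes of adhesion, membrane shape and actin among others. The 5 were in PPME1, MDM2, CLASP1 and ACACA, the last with 2 copies.

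Among the other motifs, GCATG was more frequent in members than in both other parts. It occurred in 95 members (13.5%, 11.2 to 16.2), against 92 downstream peaks (9.46%, 7.77 to 11.5) and 847 mid‐intron peaks (8.54%, 8.01 to 9.11). The odds ratio was 1.49 against downstream peaks (Fisher's exact test, adjusted p = 0.035) and 1.67 against mid‐intron peaks (adjusted p = 4.7e-04). The 64‐nt windows before all 3′ splice sites held GCATG in 5.49%, and windows at the same distance after all 5′ splice sites in 5.24%. On the opposite strand the share was 9.50% in members, 8.53% in downstream peaks and 7.70% in mid‐intron peaks, in the same order and with no test. The comparison with downstream peaks did not pass the exact test in 5 of 8 alternative settings, in which the odds ratio was 1.06 to 1.49 and the adjusted p 0.087 to 0.94, and the comparison with mid‐intron peaks passed in all but that of peaks within 100 nt (odds ratio 1.41, adjusted p = 0.39).

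The longer TGCATG, which contains GCATG, occurred in 52 members (7.38%), 53 downstream peaks (5.45%) and 332 mid‐intron peaks (3.35%). GCATG occurred in 14 of the 88 members with ACTAAC (15.9%) and in 81 of the 617 without it (13.1%). Among members before skippable exons the share was 48 of 250 (19.2%, 14.8 to 24.5), and among the rest 47 of 455 (10.3%, 7.86 to 13.5), a contrast seen after the values were known and given with no test. For ACTAAC the order was the other way, with 9.60% before skippable exons and 14.1% before the rest, again with no test. The CSNK1G1 member shown above held 2 copies of GCATG within its first 20 bases and lay before a skippable exon of 24 nt.

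TTCTCT, a motif of the polypyrimidine tract binding proteins, occurred in 39 members (5.53%) and 28 downstream peaks (2.88%), with an odds ratio of 1.97 (Fisher's exact test, adjusted p = 0.028). It did not pass against mid‐intron peaks, of which 4.24% held it (odds ratio 1.34, exact test, adjusted p = 0.19). In all windows of 64 nt it occurred in 3.90% before 3′ and 3.97% after 5′ splice sites. Against mid‐intron peaks, by the same exact test, TGTGTG was more frequent in members (7.52% against 4.53%, adjusted p = 0.0039), as was GGGGG (14.0% against 10.0%, adjusted p = 0.0047). For GGGGG the direction was the other way against downstream peaks, of which 17.2% held it (odds ratio 0.790, exact test, adjusted p = 0.18). TTTTTT was less frequent (exact test, 1.84% against 4.58%, adjusted p = 0.0024), and all windows before 3′ splice sites held it in 7.74%. Neither TGTGTG nor TTTTTT passed against downstream peaks. The difference in TTCTCT did not pass within 100 or 500 nt of the exon, by the summit or in 50 nt around it, that in GGGGG not within 100 or 500 nt, and that in TTTTTT not within 100 nt. The pyrimidine share of members was 51.4% at the median, against 50.0% for downstream peaks (permutation test, adjusted p = 0.070), 50.8% at the same distances before all 3′ splice sites, and 72.8% in the last 3 to 25 nt before all of them.

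The introns that held members were shorter than those with a peak after the upstream exon. Each intron was counted once, and 117 introns with peaks of both kinds were left out of the test. The median was 2080 nt for the 436 introns with members alone and 2826.5 nt for the 662 with downstream peaks alone, a difference of -0.44 on the log2 scale (permutation test, p = 9.2e-04, adjusted p = 0.0032). Within 100 nt of the exon the difference was the same size but did not pass (-0.44, permutation test, adjusted p = 0.067). Counting all exons, 496 of the 553 after members were internal, and 591 of the 779 before downstream peaks. No setting limited the introns to those of internal exons, so the part of exon position in the length difference was not tested. The 117 introns with both had a median of 1103 nt, which the rule bears on, since a short intron puts more of its length near both ends.

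The exons after members were often annotated as skippable, and the difference from those before downstream peaks did not pass. Of the 553 exons, 188 were skippable (34.0%). Without the 60 exons that had both kinds of peak, counted as the same exon only where both its ends were the same, the share was 142 of 493 (28.8%) for members and 224 of 719 (31.2%) for downstream peaks, with an odds ratio of 0.895 (Fisher's exact test, adjusted p = 0.48). Of the 60 exons with both, 46 were skippable. Judged by splice site alone, whatever the other end of the exon, 62 exons after members had a downstream peak too. Without those the shares were 140 of 491 (28.5%) and 223 of 718 (31.1%), with an odds ratio of 0.886 (exact test, adjusted p = 0.44). In every setting the share was smaller for members. The odds ratio was lowest, at 0.789, with all protein‐coding transcripts (exact test, adjusted p = 0.064), and was 0.824 for internal coding exons alone (exact test, adjusted p = 0.23). Of the 496 internal exons after members 34.3% (30.2 to 38.6) were skippable, and 36.4% (32.6 to 40.3) of the 591 before downstream peaks. Of all 62971 internal exons of genes with a peak 13.2% were, which is a description with no filter for read coverage. Skippable internal exons had a median length of 81 nt both after members and before downstream peaks, against 106 nt for all such exons. A length that 3 divides was found in 116 of 170 (68.2%) after members, 142 of 215 (66.0%) before downstream peaks and 51.6% of all skippable ones. Exons of 50 nt or shorter made up 13.5% of the 496 and 5.01% of all.

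Peaks gathered around some of these exons. Of the 496 internal exons, 62 also had a peak within 250 nt downstream of their 5′ splice site (12.5%, against 0.994% of all internal exons), 93 had a peak in or across the exon (18.8%, against 0.811%), 42 had all 3 kinds (8.47%) and 383 had neither of the others (77.2%). Of the 42 exons with all 3 kinds, 37 were skippable (88.1%, 75.0 to 94.8), and of the 383 with an upstream peak alone, 85 were (22.2%, 18.3 to 26.6). These counts are a description over 1 list, with no test, and the internal exons were not filtered for whether reads covered them.

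**Figure D5:**
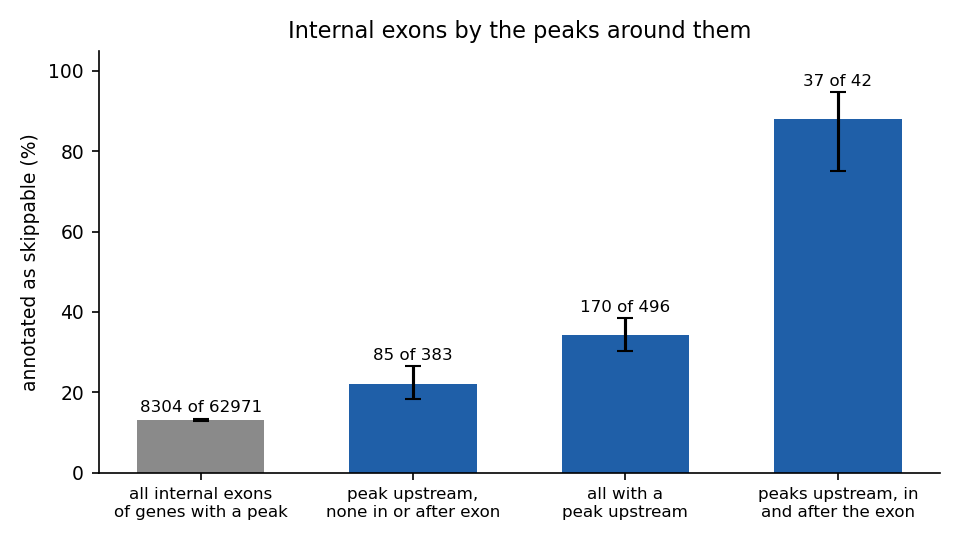
Percent of internal exons annotated as skippable, with 95% Wilson intervals and the counts above the bars, for all internal exons of genes with a peak (13.2%), those with a peak upstream and none in or after the exon (22.2%), all with a peak upstream (34.3%) and those with peaks upstream, in and after the exon (88.1%).

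The 42 exons included very short ones, of 9 nt in NAV2, 12 nt in INCENP, a subunit of the chromosomal passenger complex, 24 nt in BIN1 and 27 nt in the receptor kinase AXL and the polarity kinase MARK2. MICAL3 had 3 such exons, of 108, 57 and 99 nt, DNM2 had 2 of 139 nt each, and SPTAN1 had 2, of 60 and 63 nt. A 167‐nt exon of PKM, the pyruvate kinase gene, and an 80‐nt exon of the stress kinase MAPK14 were also among them. The 5 that were not skippable in this annotation were in BICD1, MYO18A (12 nt), NAV2 (101 nt), TROAP and VCL.

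Several genes whose exons the study followed by RT–PCR had members. Members were matched by gene, and whether the exon after a member was the tested exon was not checked. Of the 11 genes, 7 had at least 1 member, 14 members in all, and ADD3, EXOC1, CSNK1G3 and NFYA had none. Of all 3779 genes with an intronic peak, 461 had a member (12.2%). The study picked these exons partly for predicted direct binding by QKI‐5, so the count is not independent of the peaks. It grouped the events in ADD3, CD47, DEPDC1, EXOC1 and NUMB as those in which QKI causes exclusion. CLSTN1, MARK3, MPRIP and MYO18A, which had members, were outside that group. CD47 had members of height 41 and 15 before a 25‐nt exon and of height 27 before the 33‐nt exon, all skippable. MYO18A had members of 167 and 65 before a 123‐nt exon and of 58 before a 12‐nt exon. In CLSTN1, which encodes the cargo adaptor calsyntenin, a member of 43 with ACTAAC 115 nt from the exon lay before a 158‐nt exon, and members of 36 and 24 before a 196‐nt exon. MPRIP, which brings myosin phosphatase to actin, had a member of 113 with ACTAAC 126 nt before its last exon and one of 28. NUMB had the one of 135, DEPDC1 one of 27 and the polarity kinase MARK3 one of 21 before a 45‐nt exon. The exons after the NUMB, DEPDC1 and MARK3 members were skippable, and those after the MYO18A, CLSTN1 and MPRIP members were not. Of these 14 members, those of CLSTN1 and MPRIP that are named with it held ACTAAC and the others did not.

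Each gene list had a larger share of genes with a member than all genes with an intronic peak. Of the 57 actin and myosin genes with an intronic peak, 27 had a member (47.4%), 76 members in all, beside 461 of 3779 genes with an intronic peak (12.2%). Integrin, matrix and adhesion genes had a member in 7 of 21 (33.3%), including PXN (paxillin, height 73) and TLN1 (talin, height 45). Junction and polarity genes had one in 8 of 25 (32.0%), including NUMB and PARD3. For splicing factors it was 12 of 41 (29.3%), including HNRNPL and TRA2A (45), for kinases 10 of 36 (27.8%), including CAMK2G (47) and CSNK1G1 (42), and for membrane trafficking 9 of 36, including DNM2 (58) and BIN1 (51). The membrane trafficking members, 23 in all, held no ACTAAC, beside 88 of all 705 members with it (12.5%). Of the 76 actin and myosin members 8 held it, and each of the other lists had 2, of 10 to 19 members. The lists were drawn up with the data known, and no test was made of them. The number of introns or peaks per gene was not taken into account.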

How the data were processed

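The authors trimmed reads with cutadapt 1.3, mapped them to hg19 with TopHat2 2.0.10 and called peaks on each strand with MACS2 2.1.1.20160309, pooling 7 immunoprecipitation libraries against 2 size‐matched inputs (tools also listed in the submitters' processing notes). The deposited height of each peak is a signal of the pooled libraries, so depth per library is unknown here and no replicate error exists. Starts were converted to count from 1, and 18 mitochondrial peaks were left out. Peaks were classed against GENCODE release 44 on GRCh37, whereas the authors mapped with a UCSC annotation. Fisher's exact test was used for shares (odds ratios with 0.5 added to each cell) and 100000 permutations for medians, adjusted by Benjamini-Hochberg over 18 motif and 7 other comparisons, with a threshold of 0.05 (scipy 1.17.1, numpy 2.4.6, statsmodels 0.14.6, pysam 0.24.0). Fisher's test, the permutation of medians, the regression with peak width, the ACTAAC search and the classes were checked on simulated data.

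Genes named by rule were those of the 12 tallest members, the 5 sites with most members, members with ACTAAC 18 to 45 nt from the exon, members of the 11 genes with RT–PCR exons, the 2 tallest members of each gene list and the 3 peaks on each side of 250 nt. Others were named after their values were seen. The members, motifs and lists were chosen with earlier results of these data known. Splicing measurements were not used here.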

Additional observations from a re-analysis of the deposited data

How the results depend on the processing

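Pooling before peak calling left no library to leave out. No paired analysis was possible because the list holds no values per library. The number of members was 364 for peaks at or above the median height, 175 within 100 nt and 1379 within 500 nt. The difference in distance from downstream peaks was 17 nt and did not pass at or above the median height (19 nt), within 100 nt (3 nt), within 500 nt (5.5 nt) or by the summit (7 nt), and it passed with 1 peak per site and with all protein‐coding transcripts. For ACTAAC against downstream peaks the odds ratio turned from 0.987 to 1.15 within 500 nt, 1.12 in 50 nt around the summit, 1.01 with ACTAAC or ACTAAT and 1.02 with peak width as covariate, and passed in none of these. Against mid‐intron peaks ACTAAC passed at or above the median height (1.44), with 1 peak per site (1.47), within 500 nt (1.27) and with ACTAAC or ACTAAT (1.29), so that result depends on the setting. With 1 peak per site the tallest peak of each site was kept, and the mid‐intron peaks were not thinned. Of 16 comparisons of the other motifs, including the core variants, 6 passed, and 1 did within 100 nt. Height against mid‐intron peaks passed with 1 peak per site (0.12 on the log2 scale). Because that setting picked members by their height and left the mid‐intron peaks whole, it cannot decide whether members are taller. The height difference with ACTAAC did not pass at or above the median height (0.17), and that of intron length did not within 100 nt (-0.44). Within 100 nt fewer peaks were tested, and some differences were also smaller there, such as that in distance, while that of intron length was not. The cause of the changes between settings was not tested. Settings for motifs other than ACTAAC, and the judging of exons by splice site, were added after seeing the data.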
